A study of Homo sapiens with 4 samples.

Results

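The genes described here encode the enzymes of glycolysis, of pyruvate's entry into the mitochondrial citric acid cycle, and of that cycle. They are 40 named genes, each read through the array probes that the platform annotation maps to that single gene symbol. Of these 40 genes, 39 had at least 1 such probe, out of 20046 genes named on the array, and 38 were tested, out of 10754 genes tested. The fumarase gene FH had no probe in the annotation used and was not analysed here. Pyruvate dehydrogenase kinase gene PDK1 had 1 probe, which was not detected on any of the 4 arrays (normalised log2 intensity 4.55 and 4.72 with miR-31, 4.65 and 4.85 with miR-NC), so it was not tested.

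Messenger RNA was measured on Illumina bead arrays in LNCaP cells, which are human prostate cancer cells that respond to androgen, kept in RPMI medium with 10% fetal bovine serum. One group was transfected with 50 nM of the microRNA miR-31 and the other with 50 nM of miR-NC, its control, both for 48 h, with 2 arrays per group. Both groups were thus transfected, and the comparison answers what miR-31 overexpression changes relative to miR-NC in this 1 line. The labels number the arrays as repeats without saying that they came from separate cultures, so each p-value covers the spread among these arrays only, and that spread may be technical.

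Glycolysis splits glucose into pyruvate in the cytosol. Its rate is set mainly at hexokinase, at phosphofructokinase and at pyruvate kinase, and phosphofructokinase is switched on by fructose-2,6-bisphosphate, a regulator made and removed by the PFKFB enzymes. Pyruvate is either reduced to lactate, carried into the cycle as acetyl-CoA by the pyruvate dehydrogenase complex, or carboxylated to oxaloacetate. Prostate epithelium is known for exporting citrate, and prostate cancer cells are known for oxidising it in the cycle instead.

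A microRNA acts on messenger RNAs that pair with its seed, bases 2 to 8. The mature sequence of miR-31 is shown because it is the molecule that was added, with the seed in capitals, as RefSeq gives it on GRCh38.p14 at chr9:21512158-21512178, minus strand. Sites for this seed in the members' messenger RNAs were not analysed here.
hsa-miR-31-5p: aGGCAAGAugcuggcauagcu

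A promoter window of each of a pair of genes is shown because the genes differ in result. PFKFB3 was the only member to pass the test, while LDHA, a classical glycolytic target of the hypoxia factor HIF1 and of MYC, did not. Each stretch of 300 bases covers 250 bases before a gene start and 50 bases from it, from RefSeq on GRCh38.p14, and capitals mark CACGTG, the E-box, which reads the same on both strands and holds the hypoxia core ACGTG. The PFKFB3 window lies at chr10:6202682-6202981, plus strand, with the motif starting 108 bases before the gene start. The LDHA window lies at chr11:18394313-18394612, plus strand, with motifs starting 185 and 87 bases before it. Each gene has 2 windows. The one shown was picked because it holds the motif, and the one not shown holds 0 copies for either gene. Both shown windows hold the motif because they were picked for it, so the pair cannot tell whether the motif goes with the result.
PFKFB3: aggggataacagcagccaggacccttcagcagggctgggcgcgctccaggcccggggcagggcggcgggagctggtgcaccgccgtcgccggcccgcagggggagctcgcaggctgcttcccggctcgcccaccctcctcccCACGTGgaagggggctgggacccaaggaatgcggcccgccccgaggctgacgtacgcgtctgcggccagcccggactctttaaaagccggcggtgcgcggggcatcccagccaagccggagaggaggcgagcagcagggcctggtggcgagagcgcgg
LDHA: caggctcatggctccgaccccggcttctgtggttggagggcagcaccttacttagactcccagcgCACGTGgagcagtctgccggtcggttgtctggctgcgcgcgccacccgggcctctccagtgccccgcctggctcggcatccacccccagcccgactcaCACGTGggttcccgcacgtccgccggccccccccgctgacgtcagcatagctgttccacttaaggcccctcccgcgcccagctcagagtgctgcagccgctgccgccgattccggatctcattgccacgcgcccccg
CACGTG was present in a window of 7 of the 38 members that have one (18.4%), namely HK2, PFKFB3, ALDOA, ALDOC, GAPDH, LDHA and PDHB, against 8.77% of 27305 genes. Counted by windows, several of which can belong to 1 gene, it was in 7 of 64 member windows (10.9%) against 7.26% of 35116. Of the 7 genes called lower among the members and the other pathway genes described below, 1 (14.3%) had it, PFKFB3. A match is only these letters in this window.

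Detection differed most between the miR-31 arrays, which detected 34.6% and 40.7% of probes. The miR-NC arrays lay between them, at 38.1% and 37.6%. Pearson's r over tested probes was 0.983 between the miR-31 arrays, 0.979 between the miR-NC arrays and 0.953 to 0.973 across groups. Of 7 luminal prostate markers, 6 were detected on all 4 arrays (KLK3, KLK2, FOLH1, HOXB13, TMPRSS2 and KRT8), with a summed log2 level of 12.92 and 13.07 with miR-31 and 13.24 to 13.50 with miR-NC, and the part of this shift in the results was not tested. KRT18 was detected on 1 array. The basal keratins KRT5 and KRT14 were undetected throughout, with a summed level of 5.53 and 5.59 against 5.60 and 5.65. None of the 3 stromal markers was detected on all 4 arrays, at 6.87 and 6.94 against 6.78 and 7.04, nor was the leukocyte marker PTPRC, at 4.80 and 5.14 against 4.93 and 5.74. These are bulk samples, in which a change in which cells are present and a change in RNA per cell cannot be told apart.

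Most of the central carbon genes did not pass the test. At an adjusted p under 0.05, 1 of 38 members (2.63%), PFKFB3, was called lower in miR-31 cells and 0 were called higher. The test was limma with an intensity trend, two-sided, with Benjamini-Hochberg adjustment over all 18354 tested probes. Of all tested genes, 5.24% were called lower and 2.43% higher. At an unadjusted p under 0.05 there were 8 members, of which 3 were positive (PGK1, PGAM1 and IDH3G) and 5 negative (PFKFB3, ALDOA, ALDOC, PKM and PC), with 2723 of all 10754 genes below that limit. The members' median log2 change was -0.06, with 12 positive and 26 negative. That of all tested genes was -0.02, with 5187 positive and 5567 negative. The median size of change, whatever its sign, was 0.16 over members and 0.27 over all genes.

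In 20 members (52.6%) the miR-31 arrays lay wholly above (8) or wholly below (12) the miR-NC arrays, against 55.0% of all tested genes. A change of at least 1.5-fold was measured for 5 members (13.2%), PFKFB3, PGAM1, PC, PKM and ALDOC, against 19.5% of all tested genes. A missed threshold does not show that a gene was unchanged, so the width of the intervals matters. The 95% interval of the log2 change lay within 1.5-fold either way for 19 members (50.0%) and within 2-fold for 33 (86.8%), against 21.7% and 70.9% of all tested genes. The members were also brighter, with a median log2 level of 10.50 against 8.22, and their median standard error was 0.17 against 0.22. The part of brightness in the narrower intervals was not tested.

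**Figure D1:**
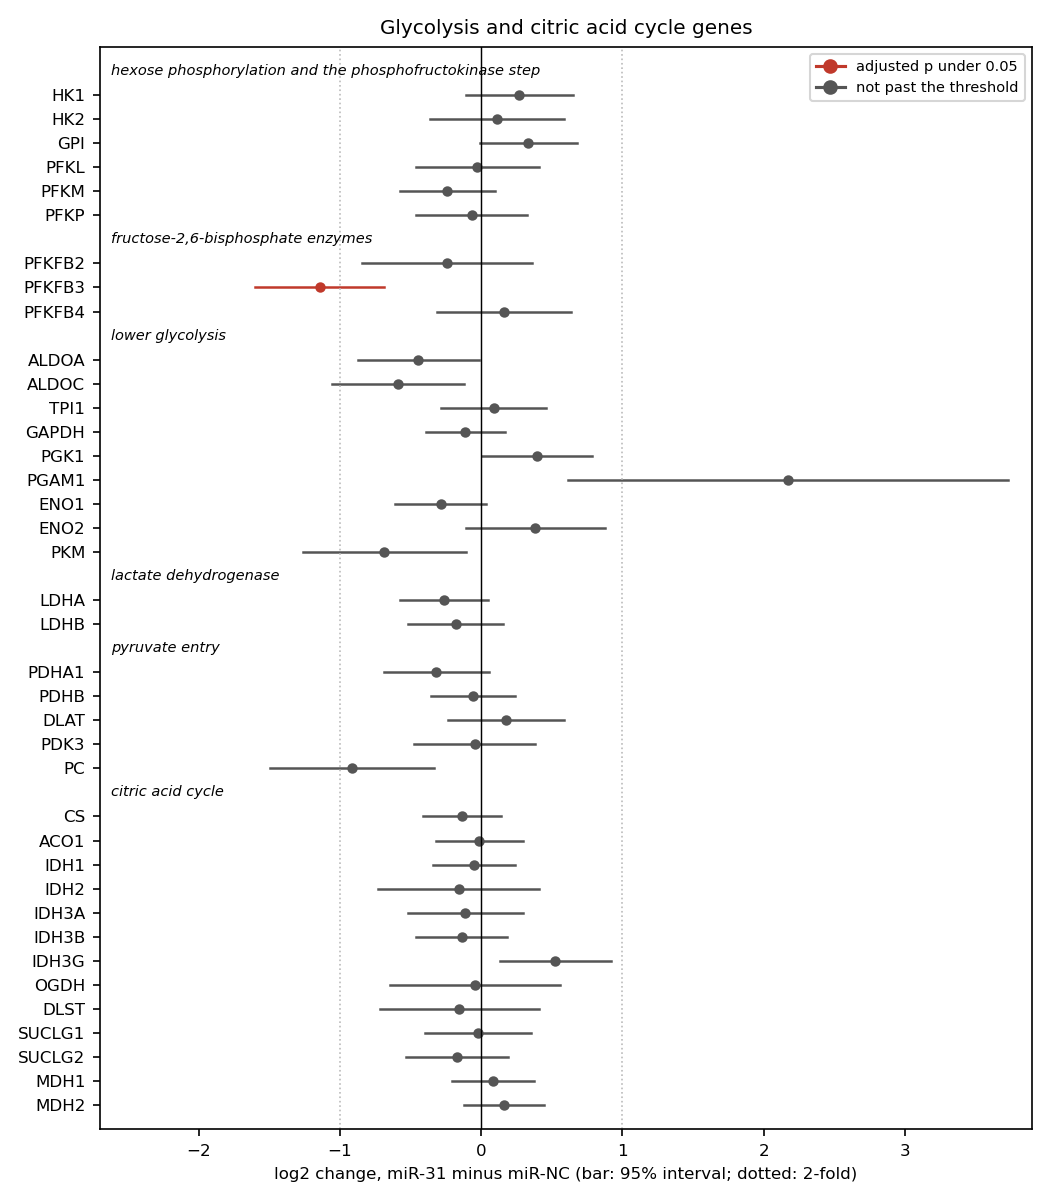
The log2 change (miR-31 minus miR-NC, x axis) of each of the 38 tested genes is plotted with its 95% interval, grouped by role down the page. PFKFB3, in red, is the gene past the threshold, the intervals of PFKFB3, ALDOC, PGAM1, PKM and PC cross or lie beyond a dotted 2-fold line, and the 13 cycle genes lie between -0.17 and 0.53.

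None of the 6 genes of hexose phosphorylation and the phosphofructokinase step passed the test, and all 6 intervals lay within 2-fold. Glucose-6-phosphate isomerase GPI, which turns glucose-6-phosphate into fructose-6-phosphate, had log2 intensities of 11.57 and 11.51 in miR-31 cells and 11.05 and 11.37 in miR-NC cells. Both miR-31 arrays lay above both miR-NC arrays, with a log2 change of 0.33 ± 0.15 (SE) and a limma adjusted p of 0.238. Hexokinase HK1, which traps glucose in the cell by phosphorylating it, had 12.27 and 12.03 with miR-31 and 12.08 and 11.67 with miR-NC, so the groups overlapped (log2 change 0.27, 95% interval -0.11 to 0.65). The muscle-type phosphofructokinase subunit PFKM had 10.40 and 10.22 against 10.53 and 10.56, both miR-31 arrays lower, with a log2 change of -0.24 (-0.58 to 0.10). HK2, the inducible hexokinase of many tumours, was at 0.11 (-0.36 to 0.58). The liver- and platelet-type subunits PFKL and PFKP were at -0.03 and -0.07. In each of the 3 the arrays overlapped at the reported probe. A second HK2 probe, for the same transcript, was higher on both miR-31 arrays, at 0.43 ± 0.24 (limma adjusted p = 0.344). A dim second PFKP probe, detected on 1 array of each group, was at 0.17.

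The single member past the threshold was PFKFB3, the PFKFB isozyme whose activity strongly favours making fructose-2,6-bisphosphate. Its normalised log2 intensities were 7.81 and 7.57 in miR-31 cells, mean 7.69 ± 0.17 (SD, n = 2), and 8.89 and 8.78 in miR-NC cells, mean 8.84 ± 0.07 (SD, n = 2). The deposited intensities of this probe before normalisation were 218.6 and 252.1 with miR-31 and 669.4 and 464.2 with miR-NC. On either scale both miR-31 arrays lay below both miR-NC arrays, and the gap between groups exceeded the spread within each. The log2 change was -1.14 ± 0.20 (SE; 95% interval -1.60 to -0.69), which is 2.21-fold lower, with a limma adjusted p of 0.0136.

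A second, dimmer PFKFB3 probe, annotated to the same transcript, read 6.52 and 6.08 with miR-31 and 6.57 and 6.58 with miR-NC. It was also lower on both miR-31 arrays, by less, at -0.27 ± 0.27 with an adjusted p of 0.625 (limma), and the mean of both probes gave -0.71 with an adjusted p of 0.0672. The call at the brighter probe needed both miR-31 arrays: it was -1.26 without replicate 1 (adjusted p = 0.0951) and -1.02 without replicate 2 (adjusted p = 0.129), where no probe of the array passed. It was also lost when arrays were aligned on their medians only (-1.25, adjusted p = 0.666). Over all alternatives its limma adjusted p ran from 0.00130 to 0.666 and its sign never changed.

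The other PFKFB isozymes did not pass. PFKFB4 had 7.952 and 8.003 in miR-31 cells and 7.903 and 7.732 in miR-NC cells, slightly higher on both miR-31 arrays, at 0.16 (-0.31 to 0.64). PFKFB2 had 6.77 and 6.59 against 7.14 and 6.71, overlapping, at -0.24 (-0.84 to 0.36), and its second probe had the opposite sign, at 0.47.

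**Figure D2:**
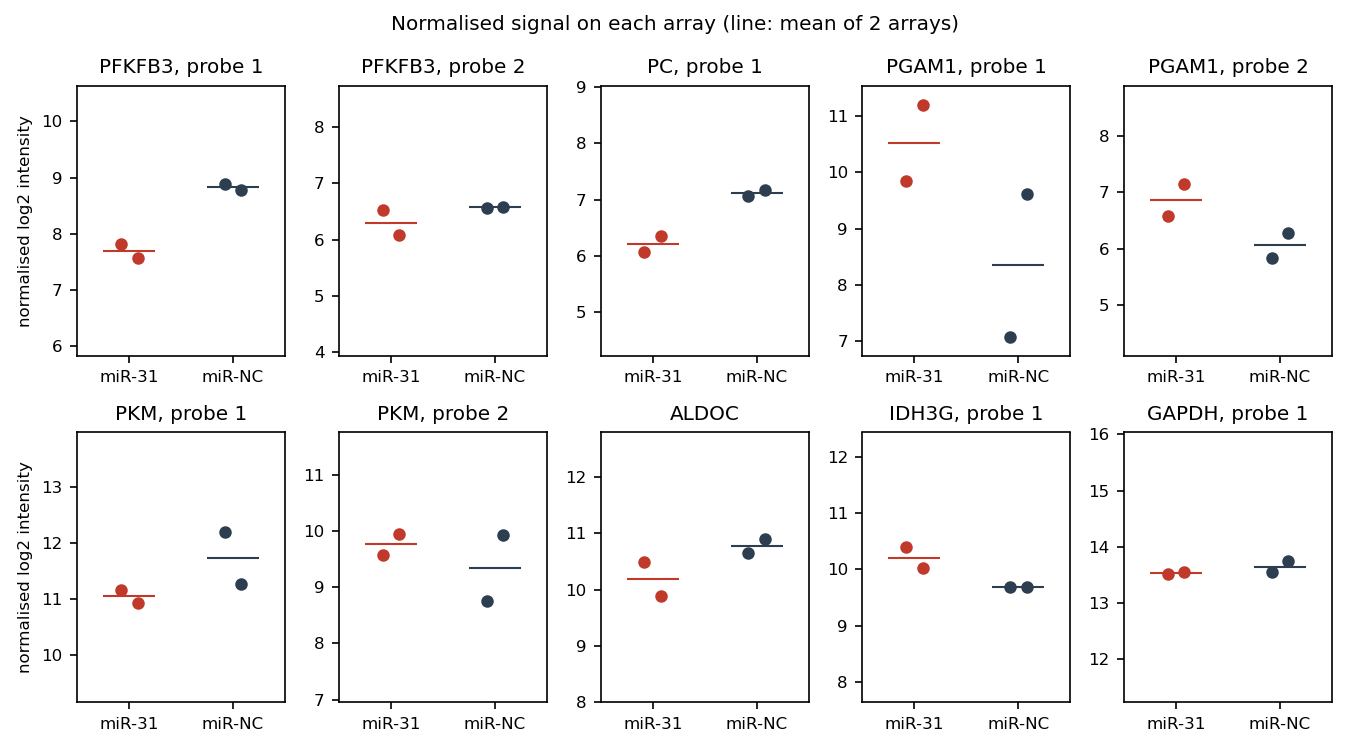
Normalised log2 intensity (y axis, each panel spanning the same range) on each miR-31 array (red, left) and miR-NC array (dark, right), with the mean of 2 arrays as a line; probe 1 is the one reported for a gene with several tested probes. At probe 1, PFKFB3 and PC were lower on both miR-31 arrays, while PGAM1 and PKM had miR-NC arrays far apart from each other.

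Lower glycolysis, from aldolase to pyruvate kinase, had 9 members and none passed the test, although 5 of them had an unadjusted p under 0.05, with both signs. The highest value was that of phosphoglycerate mutase PGAM1, which moves the phosphate of 3-phosphoglycerate. It read 9.85 and 11.20 in miR-31 cells and 7.08 and 9.62 in miR-NC cells. Both miR-31 arrays were higher, but miR-NC replicate 2 lay close below miR-31 replicate 1, and miR-NC replicate 1 far below the other 3. The log2 change was 2.17 ± 0.69 (95% interval 0.62 to 3.73), with a limma adjusted p of 0.102.

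Without miR-NC replicate 1 the PGAM1 change was 0.90 (adjusted p = 0.145), and without miR-NC replicate 2 it was 3.44 (limma adjusted p = 8.66e-08). Its second probe, annotated to the same transcript, was higher on both miR-31 arrays too, at 6.58 and 7.15 against 5.84 and 6.28, a change of 0.80 ± 0.30 (adjusted p = 0.162). PGAM1 has near-identical processed copies in the genome, and what its probes share with them was not analysed here.

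Pyruvate kinase PKM, which makes pyruvate and ATP in the last step, gave opposite signs at its probes. The brighter probe read 11.16 and 10.93 in miR-31 cells and 12.19 and 11.28 in miR-NC cells, both miR-31 arrays lower, with a log2 change of -0.69 ± 0.26 (adjusted p = 0.156, limma). The other, annotated to a different PKM transcript, read 9.57 and 9.95 against 8.75 and 9.93, overlapping, at 0.42 ± 0.33. At the brighter probe the change was -0.23 without miR-NC replicate 1 and -1.14 without miR-NC replicate 2 (limma adjusted p = 0.000117).

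ALDOC, the aldolase typical of brain, had 10.49 and 9.89 in miR-31 cells and 10.66 and 10.90 in miR-NC cells. Both miR-31 arrays were lower, with a log2 change of -0.59 ± 0.21 (95% interval -1.06 to -0.12) and a limma adjusted p of 0.135. The ALDOC change was -0.89 without miR-31 replicate 1 and -0.29 without miR-31 replicate 2, and passed in neither case. The widespread aldolase ALDOA had a change of -0.45 ± 0.19 (adjusted p = 0.207), and a dimmer probe for another transcript was at 0.21. The ALDOA change was -0.74 without miR-NC replicate 1 (limma adjusted p = 0.0159), -0.15 without miR-NC replicate 2 (adjusted p = 0.717) and -0.12 for the mean of both probes.

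PGK1, which makes ATP from 1,3-bisphosphoglycerate, was at 0.40 (0.01 to 0.78), with a second probe at 0.04. Enolase ENO1, which forms phosphoenolpyruvate, was at -0.29 (-0.61 to 0.04) and the neuronal enolase ENO2 at 0.38 (-0.11 to 0.88). Without miR-NC replicate 2, PGK1 (0.59, adjusted p = 0.0301) and ENO1 (-0.46, adjusted p = 0.0394) passed limma's threshold, whereas without miR-NC replicate 1 they were at 0.20 (adjusted p = 0.674) and -0.12 (adjusted p = 0.798). GAPDH, which oxidises glyceraldehyde-3-phosphate and is often used as a loading control, was at -0.11 (-0.39 to 0.17), and its other probes at -0.29 and -0.32.

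Triose phosphate isomerase TPI1 was at 0.09 (-0.28 to 0.46). A second TPI1 probe read 12.52 and 12.60 in miR-31 cells and 10.64 and 12.58 in miR-NC cells, so that 1 array, miR-NC replicate 1, stood below the other 3. The same array was the low one for PGAM1 and for the second PKM probe, and the high one for the brighter PKM probe.

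The lactate dehydrogenase genes did not pass and had narrow intervals. LDHA, whose enzyme reduces pyruvate to lactate and whose promoter is printed above, had 12.63 and 12.94 in miR-31 cells and 13.03 and 13.06 in miR-NC cells. Both miR-31 arrays were lower, at -0.26 (-0.58 to 0.05; limma adjusted p = 0.307), and a second probe agreed in sign at -0.23. LDHB had 11.73 and 11.95 against 11.89 and 12.15, overlapping, at -0.18 (-0.52 to 0.16).

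At pyruvate's entry into the mitochondrion none of the 5 tested members passed. The lowest was pyruvate carboxylase PC, which makes oxaloacetate and so refills the cycle. It had 6.07 and 6.35 in miR-31 cells and 7.07 and 7.18 in miR-NC cells. The groups did not overlap, and the log2 change was -0.92 ± 0.26 (95% interval -1.50 to -0.34), 1.89-fold, with a limma adjusted p of 0.0711. It passed when only probes detected at p under 0.01 on all 4 arrays were tested (adjusted p = 0.0418). The PC change was -0.54 without background correction and -0.33 for the mean of its probes (limma adjusted p = 0.509). Its other probes, each annotated to a different transcript and dimmer, were at -0.28 and 0.21, and each was detected on 3 of the 4 arrays.

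PDHA1, the catalytic subunit of pyruvate dehydrogenase, had 10.18 and 10.05 in miR-31 cells and 10.58 and 10.28 in miR-NC cells. Both miR-31 arrays were lower, at -0.32 (-0.69 to 0.05). DLAT, the acetyltransferase core of the complex, had 9.51 and 9.89 against 9.56 and 9.48, overlapping, at 0.18 (-0.23 to 0.59). PDHB, the partner subunit of PDHA1, was at -0.06, and PDK3, a kinase that switches the complex off, was at -0.05 with a second probe at -0.10.

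None of the 13 tested citric acid cycle genes passed, and 10 of the 13 were negative. Of all 10754 tested genes 5567 were negative, a smaller share, and the difference in shares was not tested. All 13 intervals lay within 2-fold, 9 of them within 1.5-fold. The highest value was that of IDH3G, a regulatory subunit of the NAD-dependent isocitrate dehydrogenase. It had 10.39 and 10.03 in miR-31 cells and 9.68 on both miR-NC arrays, with a log2 change of 0.53 ± 0.17 (95% interval 0.13 to 0.92) and a limma adjusted p of 0.115. Both miR-31 arrays were higher. A second, dim probe was detected on both miR-31 arrays and on 0 of the 2 miR-NC arrays, so it passed the detection filter only through the group where it is higher, and its difference is not read as a second measurement. The other subunits of the same enzyme, IDH3A (catalytic) and IDH3B, were at -0.11 (-0.52 to 0.29) and -0.14 (-0.46 to 0.18).

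Citrate synthase CS, which starts the cycle, had 12.64 and 12.72 in miR-31 cells and 12.78 and 12.86 in miR-NC cells. Both miR-31 arrays were lower, by little, at -0.14 (-0.42 to 0.14), and its other probes were at -0.05 and 0.04. MDH2, the mitochondrial malate dehydrogenase, had 13.47 and 13.68 against 13.46 and 13.37, both miR-31 arrays higher, at 0.16 (-0.12 to 0.44), and its cytosolic counterpart MDH1 was at 0.08.

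The NADP-dependent isocitrate dehydrogenases were at -0.05 for the cytosolic IDH1 and -0.16 (-0.73 to 0.41) for the mitochondrial IDH2. A second IDH1 probe for the same transcript read 12.14 and 12.09 in miR-31 cells and 11.62 and 11.78 in miR-NC cells, higher on both miR-31 arrays, at 0.41 ± 0.13 (limma adjusted p = 0.106). ACO1, the cytosolic aconitase and iron regulatory protein, was at -0.01. The 2-oxoglutarate dehydrogenase genes OGDH and DLST were at -0.05 and -0.15, and the succinate-CoA ligase subunits SUCLG1 and SUCLG2 at -0.02 and -0.17. The intervals of OGDH (-0.65 to 0.56) and DLST (-0.72 to 0.41), which were dim, were among the widest of the cycle.

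Probes of the same gene did not always give the same answer. The 38 members had 57 tested probes: 22 members had 1 and 16 had several, which left 19 probes beside the reported ones. Of these 19, 12 had the sign of the reported probe, 11 lay within 0.5 log2 of it and 8 lay further away, for PFKFB2, PFKFB3, ALDOA, TPI1, PGAM1, PKM and both other PC probes. None of the 19 passed the threshold, and these counts include the IDH3G probe not detected on the miR-NC arrays. The reported probe is the brightest tested probe over all 4 arrays, whatever its change, and no probe's level is set against another's.

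**Figure D3:**
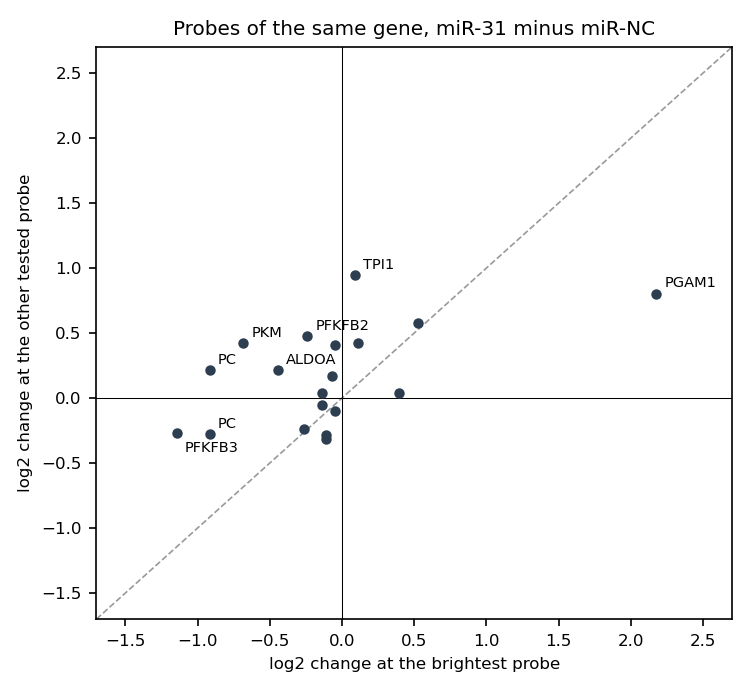
The log2 change (miR-31 minus miR-NC) at a gene's other tested probe (y axis) is plotted against that at its brightest probe (x axis) for 19 probes of 16 genes, with equality as a dashed line. Named points are the 8 more than 0.5 log2 apart, among them PFKFB3 (-0.27 against -1.14) and PKM (0.42 against -0.69).

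Of 63 other genes around these pathways, 54 were on the array and 43 were tested. Of these 43, 6 were called lower in miR-31 cells and 0 were called higher (limma, 14.0% called lower, against 5.24% of all tested genes). The list was chosen with earlier results of these data known, so these shares describe it and cannot show an excess. At an unadjusted p under 0.05 there were 9 positive and 9 negative. By group, 2 of 3 tested glucose and lactate transport genes were called lower, and 2 of 9 in anaplerosis and carbon shuttles. So were 1 of 7 in pyruvate entry and 1 of 7 in the pentose phosphate pathway. None was called lower among 5 other glycolytic isozymes, 4 other cycle enzymes and 8 genes of gluconeogenesis and glycogen. Closest to the threshold without passing were HKDC1, among the other glycolytic isozymes, at -1.06 (limma adjusted p = 0.0519), and DLD, in pyruvate entry, at 0.64 (limma adjusted p = 0.0537). HKDC1 was lower on both miR-31 arrays and DLD higher on both. Both passed at an adjusted p under 0.1, where MPC1 and PYGB were also called higher. The median log2 change of the 43 was 0.04.

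SLC2A1, which encodes the glucose transporter GLUT1, had 9.03 and 8.84 in miR-31 cells and 9.70 and 9.82 in miR-NC cells. It was lower on both miR-31 arrays, at -0.83 ± 0.17 (adjusted p = 0.0256, limma). SLC2A12, the glucose transporter GLUT12, had 8.09 on both miR-31 arrays and 9.29 and 9.16 in miR-NC cells, at -1.14 ± 0.18 (adjusted p = 0.0101). Both transporters thus fell with groups that did not overlap, while BSG, a chaperone of lactate transporters, was at -0.05.

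RPIA, ribose-5-phosphate isomerase of the pentose phosphate pathway, had 7.33 and 6.99 with miR-31 and 8.45 and 8.56 with miR-NC, at -1.34 ± 0.22 (limma adjusted p = 0.0113). PDHX, which anchors dihydrolipoamide dehydrogenase in the pyruvate dehydrogenase complex, had 9.58 and 9.51 against 10.44 and 10.26, at -0.81 ± 0.16 (adjusted p = 0.0204). In each case both miR-31 arrays were lower than both miR-NC arrays.

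The mitochondrial carriers SLC25A10 (dicarboxylates) and SLC25A11 (2-oxoglutarate and malate) fell as well. SLC25A10 had 8.21 and 7.30 in miR-31 cells and 9.21 and 9.25 in miR-NC cells, at -1.48 ± 0.28 (limma adjusted p = 0.0183). SLC25A11 had 9.18 and 8.80 against 9.93 and 9.74, at -0.84 ± 0.19 (adjusted p = 0.0358). All 6 genes kept their sign and lost their call without miR-31 replicate 1 (limma adjusted p from 0.0613 for SLC25A10 to 0.122 for PDHX) and without miR-31 replicate 2 (0.104 for SLC2A12 to 0.231 for SLC25A11). Without miR-NC replicate 1, PDHX (adjusted p = 0.0691) and SLC25A11 (0.0978) lost theirs. None of the 6 passed with arrays aligned on their medians, and without the variance trend only SLC2A12 and RPIA did. With no detection filter SLC2A1 (adjusted p = 0.0544) and SLC25A11 (0.0678) lost their calls, and on the authors' normalized values SLC25A11 did (0.0545).

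**Figure D4:**
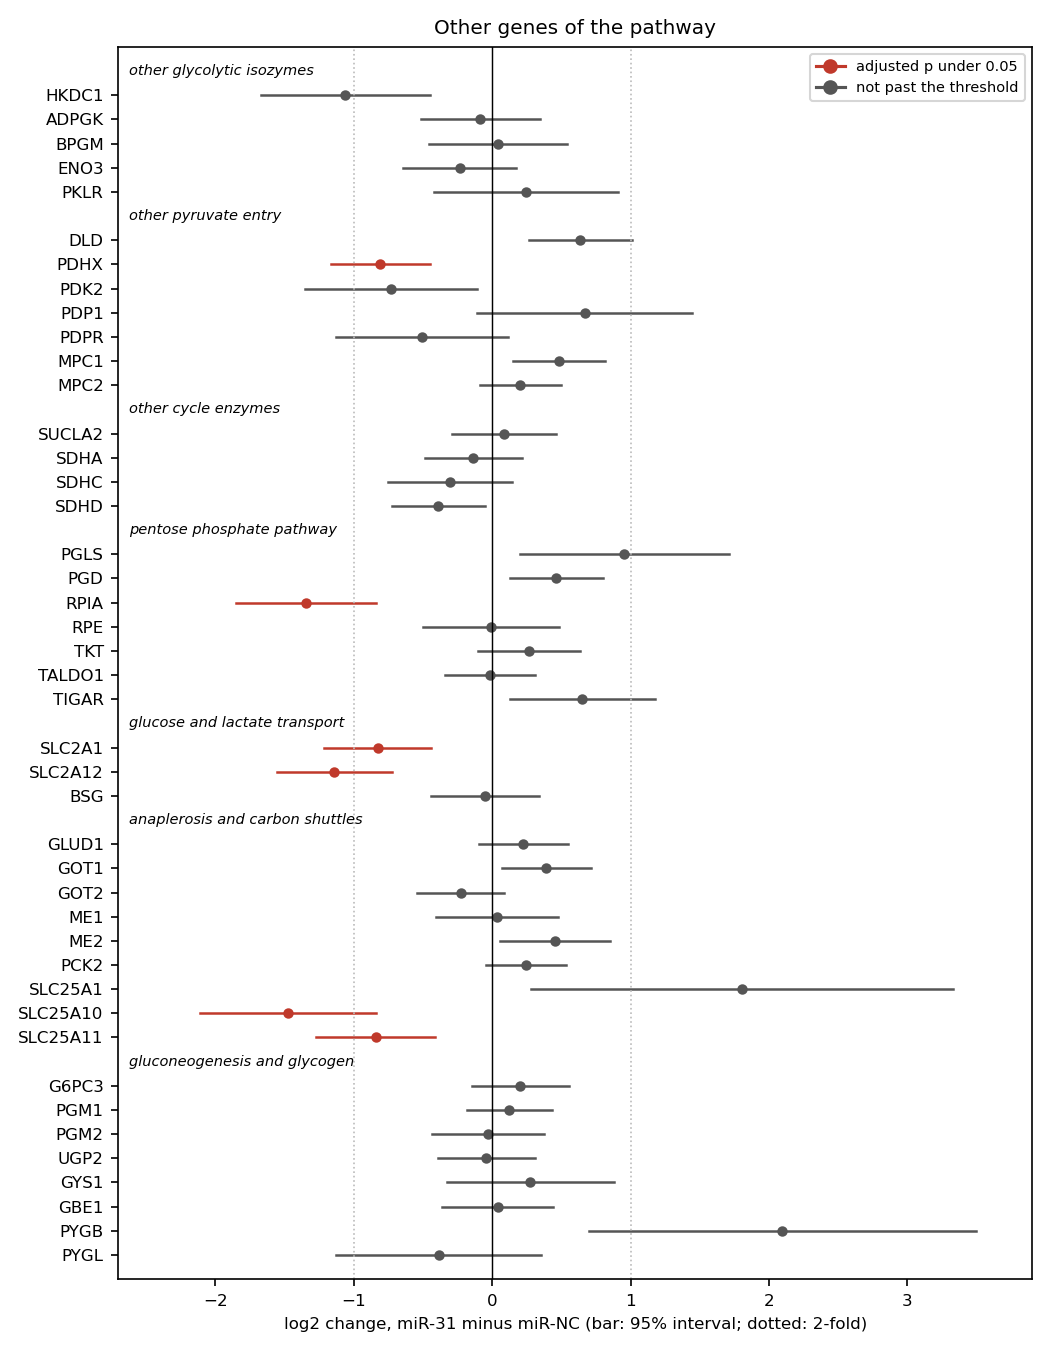
The log2 change (miR-31 minus miR-NC, x axis) with its 95% interval is plotted for the 43 other genes tested, grouped by pathway. Red marks the 6 past the threshold, all lower: PDHX, RPIA, SLC2A1, SLC2A12, SLC25A10 and SLC25A11.

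Among the members, a result could turn on a single array or on the processing. PFKFB3 kept a value between -1.26 and -0.71 under every alternative run, PC lay between -1.07 and -0.33, PGAM1 between 0.90 and 3.44, and PKM between -1.14 and -0.13. Of the 38 members, 25 kept their sign under every alternative and 13 did not; the largest reported change among those 13 was 0.24 in size.

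**Figure D5:**
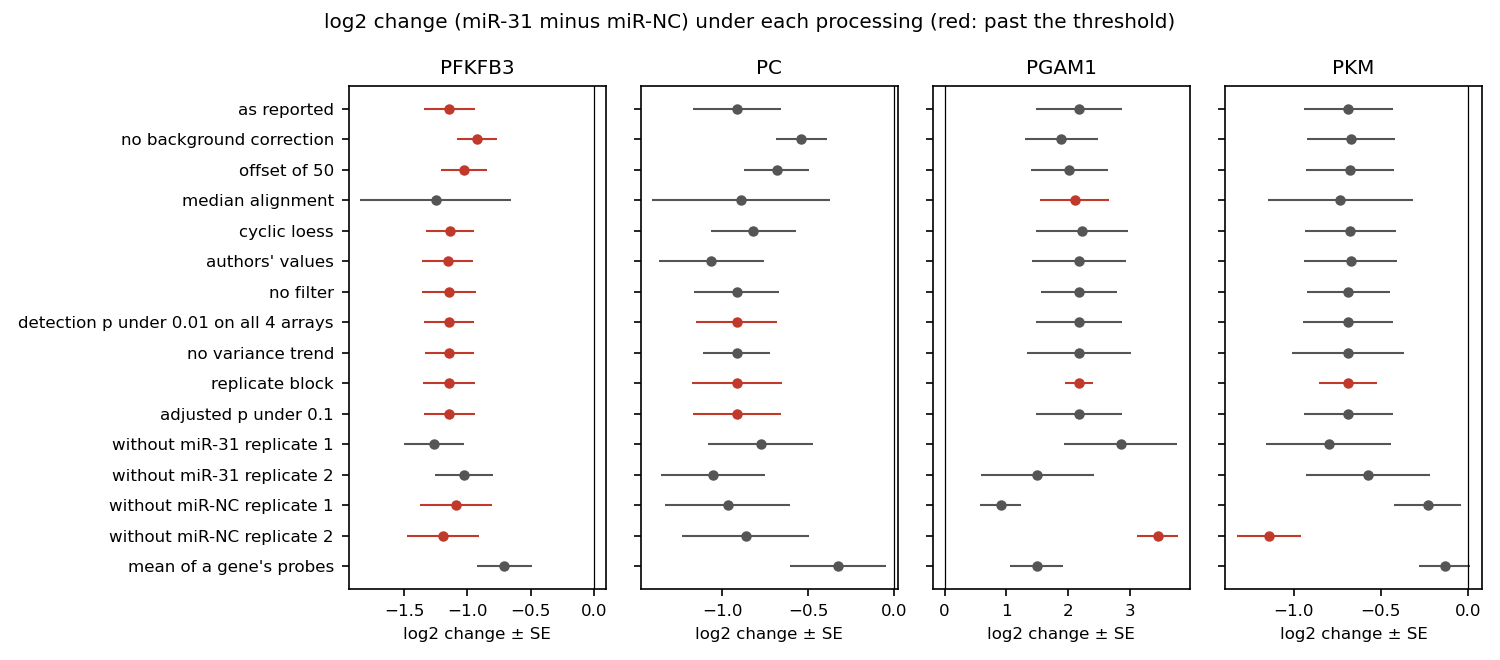
The log2 change ± SE (x axes, 1 per gene) of PFKFB3, PC, PGAM1 and PKM is plotted under each processing alternative (down the page), in red where the gene was past the threshold used. PFKFB3 was past it except with median alignment, when a gene's probes were averaged, and without either miR-31 array; PGAM1 was furthest from its reported value without a miR-NC array, and PKM when its probes were averaged.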

How the data were processed

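Intensity values were taken from the deposited non-normalized table, per the file headers, on a linear scale; the submitters' processing notes name BeadStudio, and the authors' bead summarisation is not given in the sources used here. The deposited score beside each intensity, called a detection p-value per the file headers, runs the other way, so 1 minus the score was used. The authors' normalized intensity table, whose method is not given in the sources used here, served as an alternative.

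Array columns were assigned to samples from their names, and intensities were background-corrected with limma 3.58.1 (neqc, offset 16) in R 4.3.3, quantile-normalized and put on a log2 scale. Probes with a detection p under 0.05 on at least 2 of the 4 arrays (18354 of 47231) entered lmFit and eBayes (intensity trend, two-sided) with Benjamini-Hochberg adjustment over all of them and a threshold of 0.05. The prior contributed 7.19 degrees of freedom beside 2 residual ones. An exact permutation test of 2 against 2 arrays cannot go below p = 0.333, so calls rest on the spread shared across probes, and the number of arrays limits precision. The fit was also run on simulated data drawn from its own variance model. That run checks the code and cannot tell whether the model holds for these arrays.

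The platform annotation gives 1 gene symbol to 30113 probes, several to 8 and none to 17110; 30074 were updated by Entrez identifier. A gene was read at its brightest tested probe. The members and lists were chosen with earlier results of these data known. All members are named; array values are given for members past the threshold and, per role, for up to 3 with the smallest p, plus second probes; other pathway genes are named where they passed. ALDOA, ENO1, ENO2, GAPDH, PGK1, TPI1, BSG, HKDC1 and DLD are described with values beyond that rule, and MPC1 and PYGB are named beyond it. Sequences come from RefSeq (GRCh38.p14); 38 of 40 members matched a promoter window. Alternatives changed the background correction, normalization, filter, variance trend, threshold, probe rule, arrays used and replicate number as a block.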

Additional observations from a re-analysis of the deposited data

How the results depend on the processing

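The members' median log2 change kept its sign under every alternative, at -0.14 to -0.04. Members called lower (1 as reported) and higher (0) changed as follows. Median alignment gave 0 lower and 1 higher, PGAM1 (2.10, limma adjusted p = 0.0330). A detection p under 0.01 on all 4 arrays gave 2 lower, as did an adjusted p under 0.1 (PC and PFKFB3 each time). The mean of a gene's probes gave 0 lower. Leaving out 1 array at a time gave 0 to 3 lower and 0 to 2 higher. Over all probes (747 lower, 385 higher, so 34.0% of calls were higher), median alignment gave 45 and 61 (57.5% higher), no variance trend 287 and 72 (20.1%), and an adjusted p under 0.1 gave 1228 and 805. The authors' values gave 241 higher and no filter 231. Leaving out 1 array at a time gave 0 to 953 lower and 0 to 1132 higher; without either miR-31 array limma called 0, with 3022 and 2759 probes at an unadjusted p under 0.05. In these fits the lone array is assumed to vary like the other group. The groups share replicate numbers. The difference of replicate 1 minus replicate 2 correlated between the groups at r = 0.216 across the tested probes. With 2 arrays a group, this value cannot settle whether same-numbered arrays were paired. With the replicate block there were 1328 lower and 1208 higher probes (47.6% higher), and 4 members lower (ALDOC, PC, PFKFB3 and PKM) and 1 higher (PGAM1). The cause of these differences was not tested. The precision is limited by 2 arrays a group, and signals near background, as for OGDH and PC, limit the size of change that can be read.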
